A study of Homo sapiens with 96 samples.

Results

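Interferon-stimulated genes are the antiviral genes that cells switch on after interferon or after sensing foreign RNA, and they were followed here in cells given siRNA against the clock gene Bmal1. The set was a list of 48 symbols covering RNA sensors, antiviral enzymes, signalling factors and ubiquitin-like conjugation. Of these, 47 were among the 19438 genes of every deposited table, and no expression of BST2 was analysed here. Members with a mean under 10 reads per library were reported as low, which left 38 members measured in total RNA and 30 in ribosome footprints. The tests used a separate read filter, which kept 1 low member in total RNA and 3 in footprints, so 39 and 33 were tested.

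The libraries came from U2-OS cells, a human osteosarcoma line carrying a luciferase reporter under the Per2 promoter. All cells were synchronised with 0.1 µM dexamethasone, a glucocorticoid, and were given cycloheximide at 100 µg/mL before harvest to hold ribosomes on their mRNA. Collection began 24.5 h after synchronisation and went on every 2 h, giving 12 circadian times (CT0 to CT22). Each time had 2 replicates of total RNA and 2 of ribosome profiling, which sequences the mRNA fragments covered by ribosomes. Bmal1 knockdown cells were seeded at 560000 per 15 cm plate and transfected with Lipofectamine RNAiMAX, a lipid carrier, loaded with 5 pooled siRNAs (120 pmol in all). Wild-type cells were seeded more densely and received no siRNA. The labels list no control siRNA, so the Bmal1 loss, the siRNA and lipid, the seeding density and the series in which the plates were handled cannot be told apart. Whether replicates were separate cultures is not given, and the spread behind each p-value may therefore be technical.

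Short double-stranded RNA and RNA with unusual 5′ ends can be bound by cytoplasmic sensors such as RIG-I and MDA5. They signal through MAVS to interferon regulatory factors and to the type I interferon genes. Secreted interferon acts through its receptor, JAK kinases and a complex that holds STAT2 and IRF9 and binds the interferon-stimulated response element (ISRE) in target promoters. Some members are also switched on by IRF3 or IRF1 without interferon.

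The ISRE was searched for as GAAA, any 2 bases and GAAA again, on both strands, in the 250 bases before the RefSeq start of each gene (GRCh38.p14). Of the 48 members, 39 had a RefSeq promoter entry, DDX58 under its current symbol RIGI. At least 1 match was found in 20 of these 39 promoters (51.3%), against 3.02% of all 35116 promoters in the table. The gamma-activated site TTCNNNGAA was matched in 9 of the 39 (23.1%), against 6.57% of all promoters. Matches to the ISRE letters were found in 9 of the 16 promoters of members whose total RNA rose, in 3 of the 9 whose total RNA fell and in 5 of the 8 tested without a call. A match describes the letters of the window and not use of the site, and no match says only that these letters are not in that window. The following are shown because IFIT1 and IFIT3 lie near each other on chromosome 10, with 1 coding gene between them, carry 2 matches each and moved in opposite directions, while SP110 had the largest rise and EIF2AK2 the fall with the lowest adjusted p, and neither holds a match. Capitals mark the ISRE matches, given 5′ to 3′ on the gene's strand.
IFIT1, chr10:89392373-89392622, plus strand: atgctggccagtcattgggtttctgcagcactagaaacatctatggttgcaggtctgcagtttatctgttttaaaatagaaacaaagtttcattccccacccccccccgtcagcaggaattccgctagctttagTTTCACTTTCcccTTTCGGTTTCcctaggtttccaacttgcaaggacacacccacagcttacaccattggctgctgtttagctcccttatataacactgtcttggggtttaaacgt
IFIT3, chr10:89327747-89327996, plus strand: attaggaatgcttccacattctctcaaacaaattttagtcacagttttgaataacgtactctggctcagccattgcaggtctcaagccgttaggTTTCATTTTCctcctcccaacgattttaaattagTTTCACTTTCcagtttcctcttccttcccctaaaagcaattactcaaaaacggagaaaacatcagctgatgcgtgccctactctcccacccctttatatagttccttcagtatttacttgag
SP110, chr2:230225637-230225886, minus strand: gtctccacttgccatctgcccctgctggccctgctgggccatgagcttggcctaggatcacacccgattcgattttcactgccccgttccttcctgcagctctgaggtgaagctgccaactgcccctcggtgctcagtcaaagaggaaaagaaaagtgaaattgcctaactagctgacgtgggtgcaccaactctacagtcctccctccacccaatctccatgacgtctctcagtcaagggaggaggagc
EIF2AK2, chr2:37156981-37157230, minus strand: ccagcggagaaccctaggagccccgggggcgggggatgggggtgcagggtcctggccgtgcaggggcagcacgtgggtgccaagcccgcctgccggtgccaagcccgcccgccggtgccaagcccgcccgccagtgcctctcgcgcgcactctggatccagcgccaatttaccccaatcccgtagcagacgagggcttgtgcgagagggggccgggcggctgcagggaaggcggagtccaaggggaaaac
In IFIT1 the matches begin 116 and 103 bases before the start, and in IFIT3 they begin 156 and 122 bases before it.

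The knockdown was checked on its target. ARNTL, the gene of Bmal1, had 3.36, 4.75 and 6.49 CPM (reads per mega-read, M, of the library; lowest, median, highest of 24 libraries) in total RNA of knockdown cells, against 14.3, 32.7 and 47.9 CPM in wild-type cells. Its footprints had 0, 0.689 and 1.97 CPM in knockdown cells, against 6.48, 19.4 and 28.2 CPM in wild-type cells. No knockdown library overlapped a wild-type one in either assay. Depth was 13.6 to 20.1 M reads in 46 of the 48 total RNA libraries, and 2.50 to 5.82 M reads in the footprint libraries. Shallower were 2 knockdown total RNA libraries, replicate 2 of CT14 with 2.66 M reads and of CT18 with 2.56 M reads, and 13 and 10 of the 39 members tested there lay outside the range of the other 22 knockdown libraries. The knockdown replicate 1 library at CT8 stood apart in inflammatory RNA: IL8, a chemokine, had 619.9 CPM there and 3.36 to 22.2 CPM in the other 23. Of the members, 5 of 39 lay outside the range of the other knockdown libraries in that total RNA library, and 6 of 33 in its footprint library. Of 5 osteoblast markers tested in total RNA, 3 were higher and 1 lower in knockdown cells, where 40.8% and 39.1% of all genes were. SPARC, a matrix protein, had a median of 1113 CPM in knockdown cells and 1025 CPM in wild-type cells, while ALPL, SPP1 and RUNX2 changed by 1.49, 1.54 and -0.60 on the log2 scale, and the part of these shifts in the results below was not tested. Leukocyte markers LILRA4 and CD3E had no read in total RNA, and PTPRC, the common leukocyte antigen, had medians of 0.223 CPM in knockdown cells and 0.286 CPM in wild-type cells. The 8 leukocyte markers summed to 60.7 to 94.9 CPM in knockdown cells and 61.3 to 92.0 CPM in wild-type cells. Of the 3 tested, CD68 changed by 2.61 and NCAM1 by -0.38 on the log2 scale, so the sums hide opposite changes. PTPRC was not called.

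Interferon-stimulated RNAs did not move as a block. In total RNA, 19 of the 39 tested members were higher in knockdown cells and 11 were lower, the 30 called at a Benjamini-Hochberg adjusted p under 0.05 from limma over all genes. Of all 14033 genes tested, 79.9% were called, 40.8% higher and 39.1% lower, so the share of members called was near the background. Their median log2 change was 0.03, against 0.01 over all genes tested. In footprints 16 of 33 tested members were higher and 7 were lower, where 74.2% of 11995 genes were called, 36.6% higher and 37.6% lower. The median change in footprints was 0.18 for the members and -0.01 for all genes. Of the 33 members tested in both assays, 22 were called in both, 15 higher and 7 lower; none was called in opposite directions and 6 were called in neither. Fewer genes passed with the mean over the day of each replicate series taken as 1 value, 2 series against 2: then 12 members were higher and 5 lower in total RNA, where 28.7% and 28% of all genes passed, and 15 were higher and 5 lower in footprints, where 28.4% and 29.3% of all genes passed. The calls that passed in every alternative, left-out series included, were DDX58, ZNFX1, OAS3, OASL, IRF9, SP110, IFIT3, LGALS3BP, SAMD9L, TRIM21, TRIM22 and IFI44L higher and EIF2AK2, IFIT1, MX1 and CMPK2 lower in total RNA, 16 of the 30. In footprints 18 of the 23 passed in every alternative that tested them (IFI44 was not tested under the mean filter of 10 reads), and those of IFIT3, PARP12, UBE2L6, HERC6 and DTX3L did not. In bulk libraries, fewer cells making an RNA and less of it per cell cannot be told apart.

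**Figure D1:**
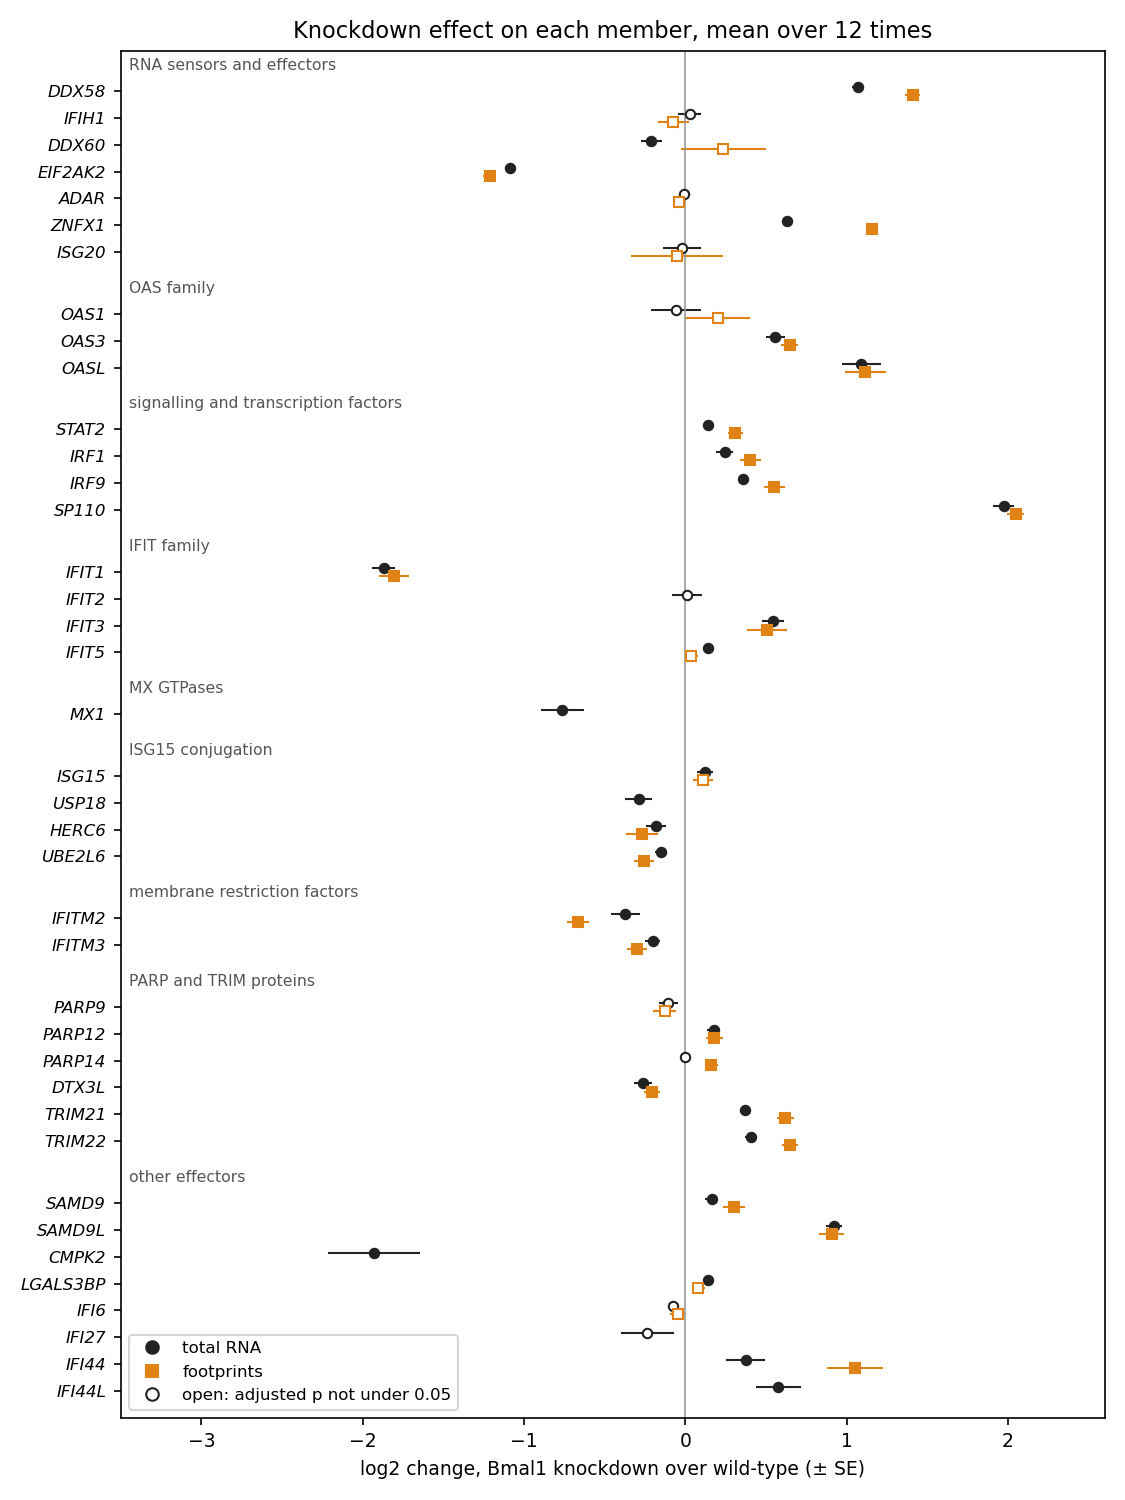
Log2 change of each tested member, Bmal1 knockdown over wild-type, averaged over 12 times, in total RNA (circles) and footprints (squares), with its SE; filled symbols passed the adjusted p of 0.05 in limma and the members are grouped by role. Changes ran from -1.93 (CMPK2) to 1.97 (SP110) in total RNA. Both directions were called within the RNA sensors and the IFIT family. They were also called in the ISG15 system, where every total RNA call was lost with series means.

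Among the RNA sensors and effectors, DDX58 and ZNFX1 rose, EIF2AK2 fell, and IFIH1, the other cytoplasmic sensor, did not pass. DDX58, which encodes the sensor RIG-I, had 27.9, 38.1 and 46.5 CPM (lowest, median, highest) in total RNA of knockdown cells, against 14.9, 18.4 and 22.2 CPM in wild-type cells. Its footprints had 58.9, 69.9 and 88.5 CPM in knockdown cells, against 18.9, 27.9 and 32.7 CPM in wild-type cells. The groups did not overlap in either assay. The log2 change was 1.07 ± 0.04 (SE) in total RNA (limma adjusted p = 1.24e-22) and 1.41 ± 0.04 in footprints (adjusted p = 1.10e-27). ZNFX1, a helicase-like protein that senses viral double-stranded RNA, had 173, 189 and 219 CPM in total RNA of knockdown cells, against 111, 122 and 133 CPM in wild-type cells. Its footprints had 177, 214 and 257 CPM in knockdown cells, against 80.5, 95.2 and 124 CPM in wild-type cells. Every knockdown library lay above every wild-type library in both assays, and the footprint change of 1.16 ± 0.03 exceeded the RNA change of 0.63 ± 0.02.

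EIF2AK2 encodes PKR, the kinase that stops translation when it binds double-stranded RNA. It had 31.1, 36.6 and 41.3 CPM in total RNA of knockdown cells, against 66.2, 78.4 and 86.1 CPM in wild-type cells. In footprints it had 49.5, 61.0 and 70.3 CPM in knockdown cells, against 123, 138 and 187 CPM in wild-type cells. Knockdown libraries lay below all wild-type ones in both assays, with log2 changes of -1.09 ± 0.03 and -1.21 ± 0.04 (limma adjusted p = 1.94e-25 and 5.68e-27). IFIH1, which encodes MDA5, had medians of 4.51 CPM in knockdown cells and 4.23 CPM in wild-type cells, with a log2 change of 0.03 ± 0.07. ADAR, which edits adenosine in double-stranded RNA, differed by -0.01 ± 0.01 in log2 total RNA and by -0.04 ± 0.02 in footprints, neither past the threshold. DDX60, a helicase reported to assist RIG-I, fell by 0.21 on the log2 scale in total RNA and was not called in footprints (0.24 ± 0.26). The nuclease gene ISG20 passed in neither assay.

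**Figure D2:**
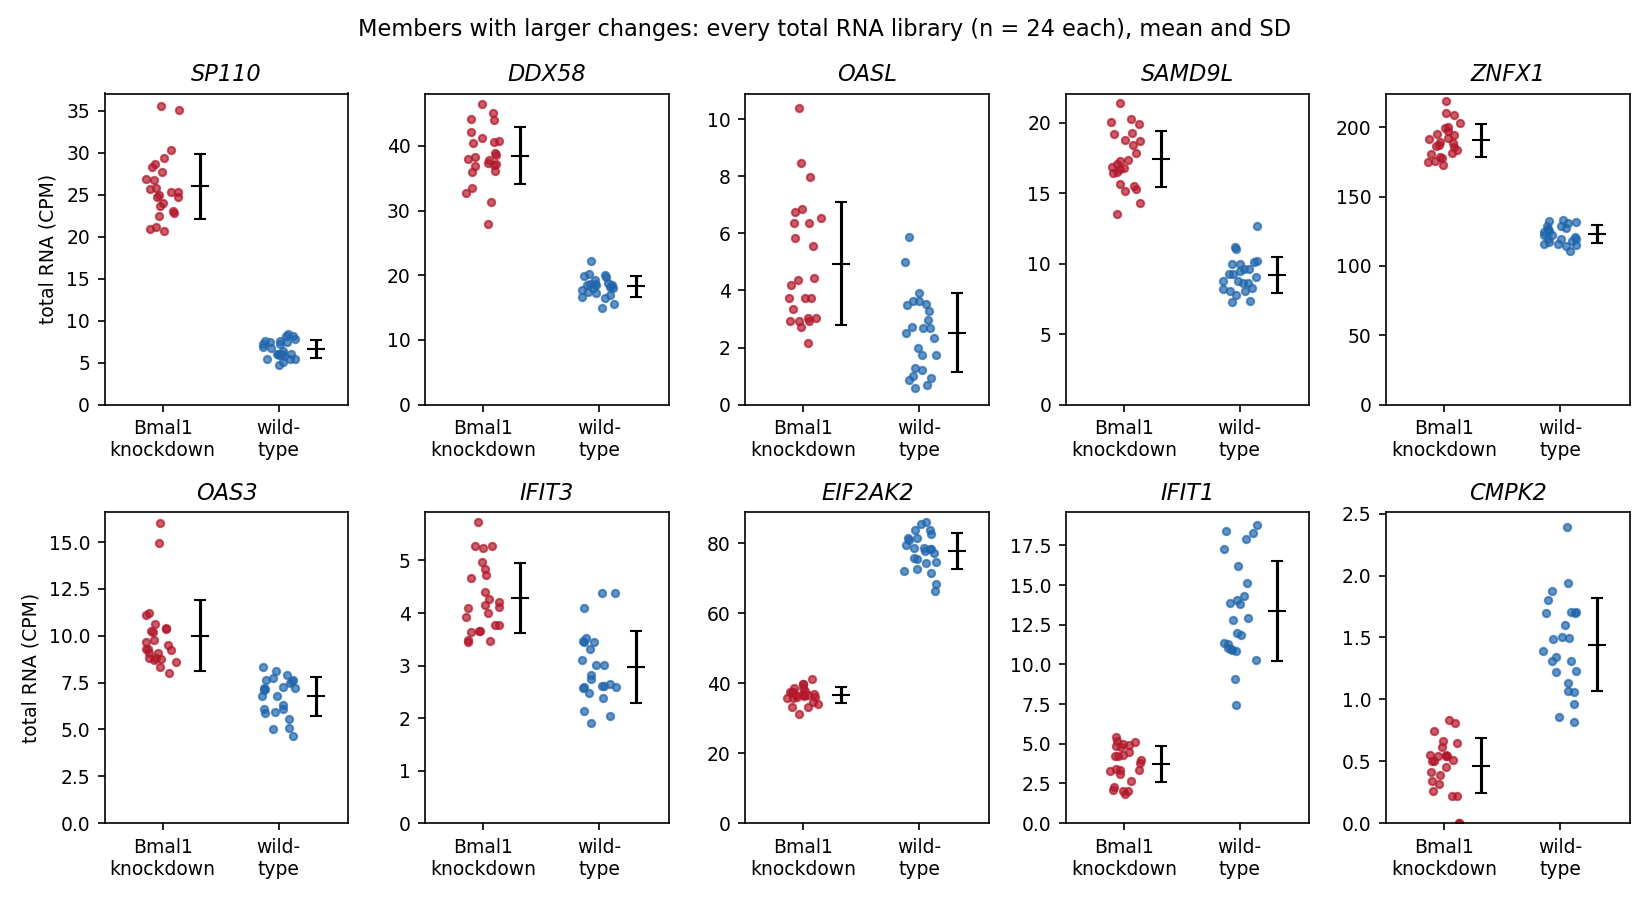
Total RNA in CPM of 10 members in each library, 24 of Bmal1 knockdown (left, red) and 24 of wild-type (right, blue) per panel, with the mean and SD beside the points; every axis starts at 0. SP110, DDX58, SAMD9L and ZNFX1 lay above every wild-type library in knockdown cells, EIF2AK2 and IFIT1 lay below, and OASL, OAS3, IFIT3 and CMPK2 overlapped.

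The OAS enzymes make oligoadenylates that activate the ribonuclease RNase L. OAS3 had 7.99, 9.40 and 16 CPM in total RNA of knockdown cells, against 4.67, 7.13 and 8.34 CPM in wild-type cells. Its 2 highest knockdown values were the shallow libraries, and without them the log2 change of 0.56 ± 0.06 became 0.51 ± 0.05. In footprints, where OAS3 had 26.0 to 35.2 CPM in knockdown cells and 13.2 to 25.2 CPM in wild-type cells, the groups did not overlap (0.65 ± 0.05). OASL, a relative without that enzyme activity that boosts RIG-I signalling, had 2.17, 4.28 and 10.4 CPM in knockdown cells, against 0.580, 2.6 and 5.88 CPM in wild-type cells. The ranges overlapped, but the mean at each time was higher in knockdown cells at 12 of 12 times, with log2 changes of 1.09 ± 0.12 in total RNA and 1.12 ± 0.13 in footprints (limma adjusted p = 1.12e-09 and 2.14e-10). OAS1, at medians of 0.596 CPM in knockdown cells and 0.604 CPM in wild-type cells, was not called (-0.06 ± 0.15). OAS2 was low, with a read in 15 of 24 knockdown and 7 of 24 wild-type total RNA libraries.

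All 4 tested signalling and transcription factors rose in both assays, where 40.8% of all genes rose in total RNA and 36.6% in footprints. With series means STAT2 and IRF1 lost their total RNA calls and kept those in footprints. SP110, a nuclear body protein, had the largest rise of any member: 20.7, 25.3 and 35.5 CPM in total RNA of knockdown cells, against 4.78, 6.56 and 8.39 CPM in wild-type cells. Its footprints had 70.2, 92.9 and 108 CPM in knockdown cells, against 17.1, 21.2 and 35.8 CPM in wild-type cells. No library overlapped, and the log2 changes were 1.97 ± 0.06 and 2.05 ± 0.05 (limma adjusted p = 4.73e-23 and 5.00e-31). The series means of SP110 total RNA were 24.8 and 27.2 CPM in knockdown cells, against 5.85 and 7.40 CPM in wild-type cells, so the replicate series differed far less than the treatments. IRF9, the DNA-binding part of the interferon-activated complex, had 28.3, 39.9 and 56.0 CPM in footprints of knockdown cells, against 14.6, 28.0 and 44.0 CPM in wild-type cells. These overlapped, and the log2 change was 0.55 ± 0.06 in footprints and 0.36 ± 0.03 in total RNA. Its partner STAT2 changed by 0.14 ± 0.03 in total RNA and 0.31 ± 0.04 in footprints, and IRF1, a factor induced by interferon gamma, by 0.24 ± 0.05 and 0.40 ± 0.06. IRF7, the factor that amplifies interferon production, was low, with reads in 3 knockdown and 1 wild-type total RNA libraries.

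The IFIT proteins bind RNA with foreign ends and block its translation, and their genes form a cluster. IFIT1 had 1.83, 3.88 and 5.45 CPM in total RNA of knockdown cells, against 7.47, 12.9 and 18.8 CPM in wild-type cells. Its footprints had 3.03, 5.55 and 8.01 CPM in knockdown cells, against 11.9, 16.9 and 26.4 CPM in wild-type cells. Every knockdown library lay below every wild-type one, a log2 change of -1.87 ± 0.07 in total RNA and -1.80 ± 0.09 in footprints (limma adjusted p = 1.15e-21 and 9.33e-21). IFIT3 went the other way, with 3.44, 4.13 and 5.73 CPM in knockdown cells, against 1.91, 2.78 and 4.38 CPM in wild-type cells. The ranges overlapped, the mean was higher in knockdown cells at 11 of 12 times, and the log2 change was 0.54 ± 0.07 in total RNA and 0.51 ± 0.13 in footprints. IFIT2 at medians of 1.25 CPM in knockdown cells and 1.28 CPM in wild-type cells was not called, and IFIT5 differed by 0.14 ± 0.03 in total RNA only. The difference in response between these neighbours was not tested, and reads shared among similar family members could move their counts.

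MX1, an antiviral GTPase, had 0.275, 0.546 and 0.811 CPM in knockdown cells, against 0.526, 0.868 and 2.00 CPM in wild-type cells. It fell by 0.76 on the log2 scale (SE 0.13, limma adjusted p = 5.29e-06), with overlapping ranges at a mean of 11.6 reads per library. Its footprints were low, with a mean of 0.896 reads per library, and so was MX2 in both assays.

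ISG15 is a ubiquitin-like protein that is attached to others by UBE2L6 and HERC5 and removed by USP18. ISG15 had medians of 13.3 CPM in knockdown cells and 11.8 CPM in wild-type cells, a log2 change of 0.12 ± 0.05 in total RNA. It was not called in footprints (0.11 ± 0.06). UBE2L6, HERC6 and USP18 fell in total RNA by 0.15, 0.18 and 0.29 on the log2 scale, and UBE2L6 and HERC6 also in footprints, by 0.25 and 0.27. With series means ISG15, UBE2L6, HERC6 and USP18 lost their total RNA calls (limma adjusted p = 0.223, 0.106, 0.227 and 0.112). HERC6 also lost its footprint call there, and UBE2L6 kept its own with series means but not in every alternative. HERC5 was low, with 2 knockdown and 1 wild-type total RNA libraries holding a read.

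IFITM proteins sit in membranes and hinder viral fusion. IFITM2 footprints had 13.1, 19.2 and 27.0 CPM in knockdown cells, against 18.7, 29.4 and 37.5 CPM in wild-type cells, a log2 change of -0.66 ± 0.07 (limma adjusted p = 2.01e-11). In total RNA it fell by 0.37, with 11.2 and 9.93 CPM in the shallow knockdown libraries and at most 5.98 CPM in the other 22. Without the shallow libraries the log2 change was -0.48 ± 0.06, and without replicate 1 of both treatments it was -0.17 and the call was lost (limma adjusted p = 0.228, the highest over its alternatives). IFITM3 fell by 0.20 in total RNA and by 0.30 in footprints. Its total RNA was also high in the shallow knockdown libraries, at 37.0 and 32.5 CPM against at most 27.2 CPM in the other 22. With series means its total RNA call was lost (limma adjusted p = 0.0707) and its footprint call was kept. IFITM1 was low. These paralogs are near copies, so reads may have been split between them and their separate values are uncertain.

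Of the PARP and TRIM proteins, the ubiquitin ligases TRIM21 and TRIM22 moved most. TRIM22 had 67.2, 94.9 and 105 CPM in footprints of knockdown cells, against 41.6, 60.8 and 73.5 CPM in wild-type cells. TRIM21, a receptor for antibody inside the cell, had 36.1, 51.2 and 57.9 CPM in footprints of knockdown cells, against 24.3, 32.5 and 39.6 CPM in wild-type cells. Both pairs of ranges overlapped slightly, the means were higher at 12 of 12 times, and the footprint log2 changes were 0.65 ± 0.05 and 0.62 ± 0.05. In total RNA TRIM22 changed by 0.41 ± 0.04 and TRIM21 by 0.37 ± 0.03. PARP12 rose in both assays by about the same amount (0.18 in each), PARP14 only passed in footprints (0.16 ± 0.04) and PARP9 in neither. DTX3L, the ligase partner of PARP9, fell by 0.26 in total RNA and by 0.21 in footprints. Both DTX3L calls were lost with series means (limma adjusted p = 0.102 and 0.111). With libraries left out, its log2 change ran from -0.48 to -0.04 in total RNA and from -0.39 to -0.02 in footprints. PARP9 and DTX3L start head to head on opposite strands, and whether counting used strand is not given, so their values are uncertain.

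Among the other effectors, SAMD9L, a growth and translation inhibitor, had 13.5, 17.2 and 21.4 CPM in total RNA of knockdown cells, against 7.26, 9.16 and 12.7 CPM in wild-type cells. Its groups did not overlap in either assay, with log2 changes of 0.92 ± 0.05 and 0.91 ± 0.08 (limma adjusted p = 5.67e-17 and 4.62e-14). Its neighbour and relative SAMD9 rose by 0.16 and 0.30. CMPK2, a mitochondrial nucleotide kinase, had 0, 0.507 and 0.837 CPM in total RNA of knockdown cells, against 0.818, 1.44 and 2.39 CPM in wild-type cells. The zeros were the 2 shallow libraries, and the log2 change of -1.93 ± 0.29 became -1.54 ± 0.13 without them. CMPK2 overlaps RSAD2 head to head on the opposite strand, and RSAD2, which encodes viperin, was low. IFI44L had 0.644, 1.02 and 2.05 CPM in knockdown cells, against 0.329, 0.686 and 1.29 CPM in wild-type cells, a log2 change of 0.58 ± 0.14 with overlapping ranges. Its neighbour IFI44 changed by 0.37 ± 0.12 in total RNA and by 1.05 ± 0.17 in footprints, where its mean of 8.73 reads per library was under the set minimum. LGALS3BP, a secreted glycoprotein, rose by 0.14 in total RNA only, and IFI6, which protects the endoplasmic reticulum during infection, was called in neither assay (-0.07 ± 0.04 and -0.05 ± 0.05). IFI27, IFI35 and XAF1 were low in both assays, and XAF1 had no footprint read in any library.

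No overlap between the 24 knockdown and 24 wild-type libraries was seen for 4 members above (9.44% of all genes) and 2 below (9.39%) in total RNA. In footprints it was seen for 5 above (5.93% of all genes) and 2 below (5.3%).

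Translational efficiency, the change in footprints beyond that in total RNA, rose for 8 of 33 members and fell for none, where 29.1% of 11947 genes were called, 12.2% higher and 16.9% lower (limma, adjusted p under 0.05). The largest among members over 10 reads in both assays was ZNFX1, at a log2 change of 0.52 ± 0.03 (limma adjusted p = 5.76e-19). DDX58 followed with 0.34 ± 0.06 (adjusted p = 5.30e-06), TRIM21 with 0.25 ± 0.06 and TRIM22 with 0.24 ± 0.07. IRF9, STAT2 and PARP14 changed by 0.20, 0.17 and 0.16, and IFI44 by 0.68 ± 0.21 at few reads. SP110, EIF2AK2 and IFIT1, whose total RNA did not overlap between treatments, gave 0.07 ± 0.09, -0.13 ± 0.05 and 0.07 ± 0.12, none past the threshold. With the mean over the day of each series as 1 value, ZNFX1 was the 1 member still called, where 0.469% of all genes rose and 1.05% fell. It was also the 1 call of the 8 kept in every alternative.

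Interferon itself was barely seen. Of 12 listed ligand symbols 8 were in the tables, and together they had 65 total RNA reads over 24 knockdown libraries and 13 over 24 wild-type libraries. IFNB1, the interferon most often made after RNA sensing in such cells, had 1 read in knockdown and 0 in wild-type libraries; IFNE had 35 and 3, IFNK 26 and 3, and IFNG 3 and 7. Footprints of the ligands numbered 5 in knockdown and 0 in wild-type libraries, and none could be tested at this depth. For the lists that follow, 40.8% of all genes rose and 39.1% fell in total RNA. Of 11 receptor and kinase genes tested there, 4 rose and 5 fell. The lambda receptor chain IFNLR1 had medians of 6.01 CPM in knockdown cells and 13.8 CPM in wild-type cells (log2 change -1.40 ± 0.14), and the gamma receptor chain IFNGR1 27.7 CPM in knockdown cells and 47.9 CPM in wild-type cells (-0.81 ± 0.03). IFNAR1, a chain of the type I receptor, changed by 0.45 ± 0.03. Of 17 RNA and DNA sensing genes, 8 rose and 3 fell, with TMEM173 (the adaptor STING) at -0.71 ± 0.13, the endosomal sensor TLR3 at 0.57 ± 0.08 and the adaptor TRAF3 at 0.54 ± 0.03. In footprints TMEM173 (-0.27 ± 0.21) and TLR3 (0.15 ± 0.15) were not called. Negative regulators split 2 up and 3 down of 7, with TNFAIP3 (A20, an inhibitor of NF-kappaB signalling) at 1.71 ± 0.11, the cytokine suppressor SOCS3 at -1.18 ± 0.11 and the deubiquitinase CYLD at 0.73 ± 0.03.

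The pathway lists were chosen with earlier results of these data known, so their shares are not independent of the data. Of the antigen presentation genes and interferon gamma targets, 14 of 17 tested were higher and 2 lower in total RNA. Over all genes tested, 40.8% were higher and 39.1% lower. The median log2 change was 0.45 for the list and 0.01 over all genes. In footprints 13 of 16 were higher and 1 lower, where 36.6% and 37.6% of all genes were. The immune checkpoint ligand CD274 had 13.0, 17.3 and 27.1 CPM in knockdown cells, against 2.95, 4.22 and 7.87 CPM in wild-type cells. The peptide transporter TAP1 had 100, 127 and 146 CPM in knockdown cells, against 42.9, 49.5 and 57.7 CPM in wild-type cells. GBP3, a guanylate-binding protein, changed by 1.30 ± 0.06. Neither CD274 nor TAP1 overlapped between groups. Of 11 listed inflammatory genes, 5 were tested in total RNA and all 5 rose (40.8% of all genes). A mean of at least 10 reads per library was reached by 4 of the 11. The read filter worked on groups of 1 treatment and time, so a gene high in 1 treatment could enter through it. The count of rises may therefore depend in part on the filter. In footprints 3 of 4 tested rose (36.6%), and NFKBIA was not called (0.11 ± 0.07). CXCL1 and CXCL2 had no read, and CXCL10, CXCL11, CCL5 and IL1B were not tested in either assay. The largest total RNA changes were those of IL1A (4.26 ± 0.13), IL8 (3.26 ± 0.31) and CCL2 (2.13 ± 0.11). The IL8 change includes the knockdown replicate 1 library at CT8, with 619.9 CPM. The leukocyte marker CD68, also present in lysosomes of other cells, had medians of 12.8 CPM in knockdown cells and 2.09 CPM in wild-type cells, and its part in these results was not tested.

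Many members drifted over the 12 times. In total RNA, 14 of 39 members had a rising and 2 a falling linear trend in knockdown cells (16.7% and 18.3% of all genes), and 10 rose and 6 fell in wild-type cells (16.8% and 21.4%). In footprints 11 of 33 rose and 0 fell in knockdown cells (9.45% and 11.7%), and 8 rose and 4 fell in wild-type cells (13.7% and 12.9%, 26.6% in all). ADAR, IFI6, IRF9, LGALS3BP, OASL and UBE2L6 rose in all 4 settings. OASL climbed most. Its total RNA averaged 2.56 CPM at CT0, 9.44 CPM at CT20 and 6.60 CPM at CT22 in knockdown cells, and 1.08 CPM at CT0 and 4.69 CPM at CT22 in wild-type cells. The fitted climb over 22 h was 1.61 ± 0.27 log2 units in knockdown cells and 2.37 ± 0.27 in wild-type cells, and the slopes were not called different. CMPK2 fell over the day in knockdown total RNA, by 1.83 log2 units with the shallow libraries and by 0.93 without them.

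The drift differed between treatments for SP110 and ZNFX1 in both assays, with the higher slope in knockdown cells. Over all genes this slope difference was called higher for 9.76% and lower for 9.66% in total RNA, and higher for 3.31% and lower for 4.99% in footprints (8.3% in all). SP110 total RNA averaged 24.4 CPM at CT0 and 31.4 CPM at CT22 in knockdown cells, against 6.79 and 6.14 CPM in wild-type cells. ZNFX1 total RNA averaged 188 CPM at CT0 and 200 CPM at CT22 in knockdown cells, against 128 and 122 CPM in wild-type cells. Both genes stood further apart between treatments at CT22 than at CT0. The SP110 call was lost in total RNA without replicate 1 (limma adjusted p = 0.0715; 0.000704 to 0.0715 over 8 alternatives), and in footprints, where the calls of SP110 and ZNFX1 reached 0.115 and 0.263, without either replicate. In those footprint fits no member kept a called difference.

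**Figure D3:**
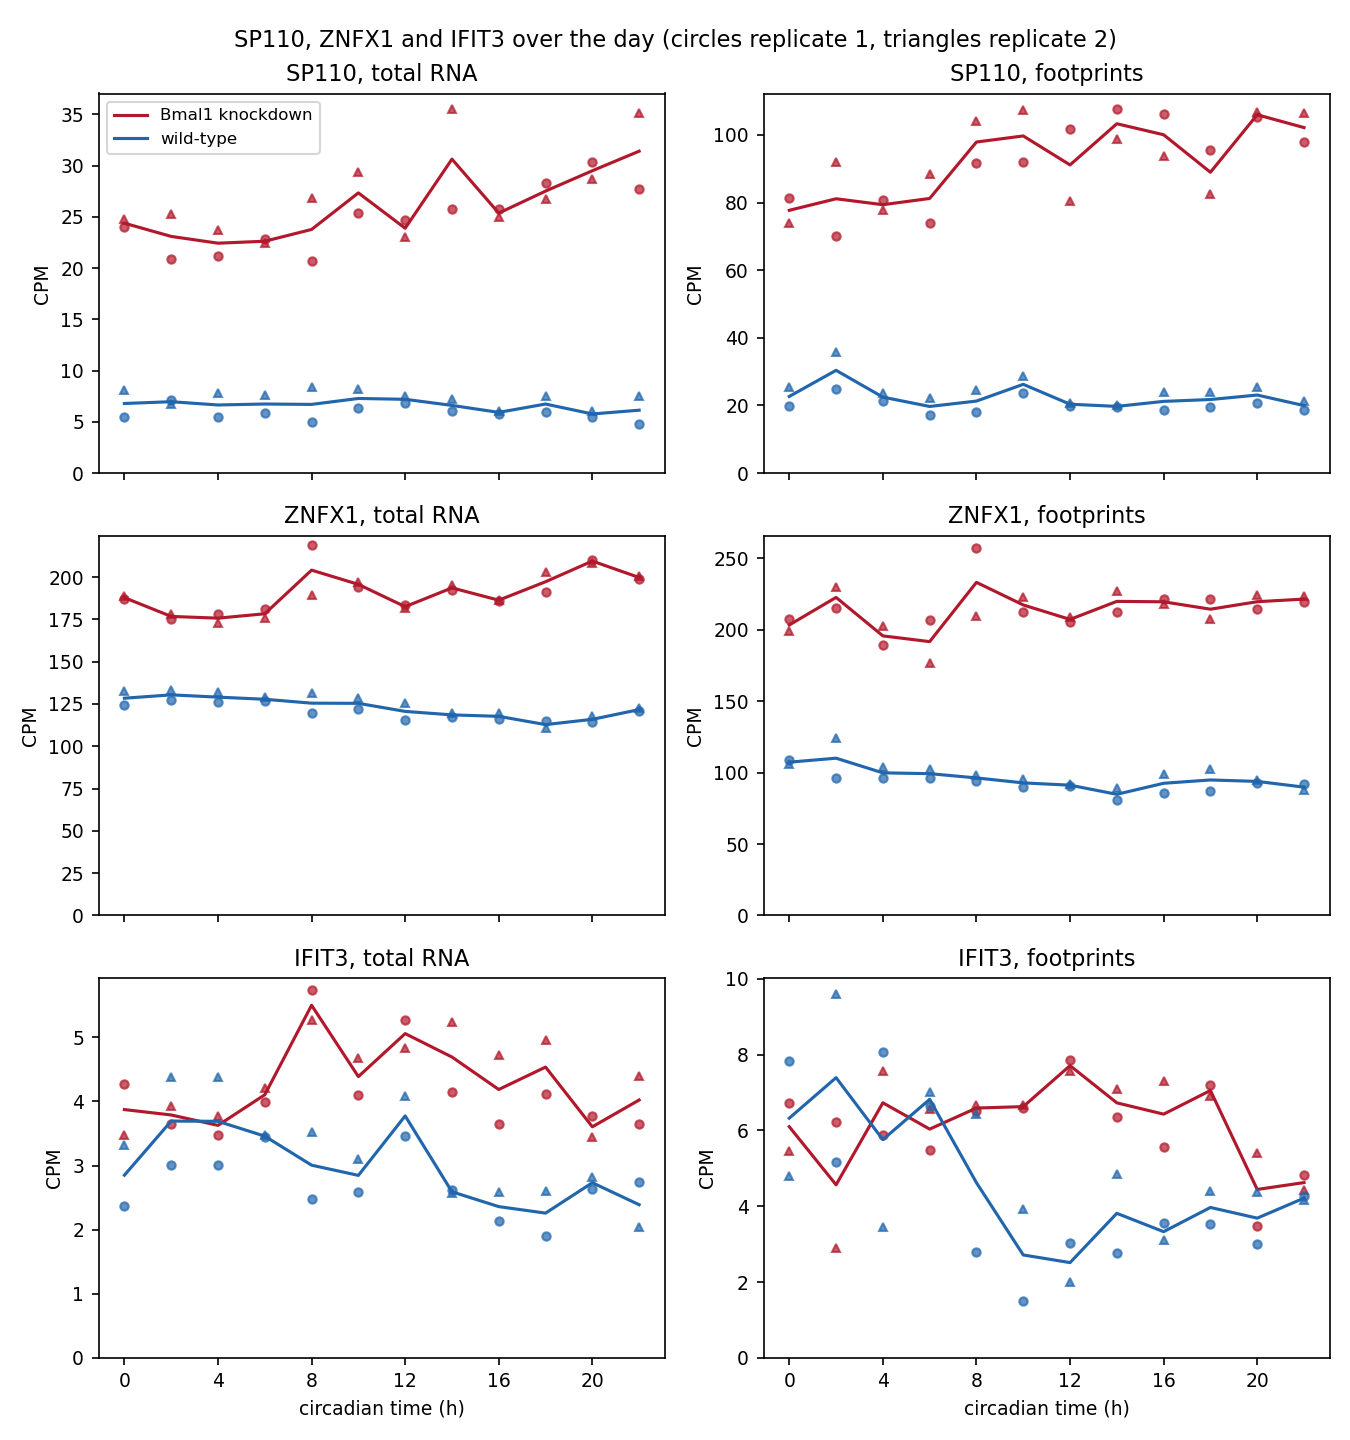
SP110, ZNFX1 and IFIT3 in CPM (axes from 0) against circadian time in hours, in total RNA (left) and footprints (right), for Bmal1 knockdown (red) and wild-type (blue); points are libraries and lines join the means of 2 replicates. The SP110 and ZNFX1 lines move apart over the day, and IFIT3 footprints of wild-type cells are lowest at CT12 (2.51 CPM).

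A 24 h wave, tested with cosine and sine terms in each treatment, passed for 14 of 39 members in knockdown total RNA (31.3% of all genes), 11 of 39 in wild-type total RNA (21%), 6 of 33 in knockdown footprints (16.6%) and 4 of 32 in wild-type footprints (6.33%). IFIT1 and OASL passed in all 4. IFIT1 total RNA averaged 2.06 CPM at CT0, 5.15 CPM at CT14 and 3.05 CPM at CT22 in knockdown cells, and 8.28 CPM at CT0, 17.8 CPM at CT10 and 11.4 CPM at CT22 in wild-type cells. The highest knockdown mean of the day was thus below the lowest wild-type mean. The fitted peaks were at CT11.2 in knockdown and CT10.5 in wild-type total RNA, and at CT11.5 and CT11.3 in footprints, with peak-to-trough ratios of 2.11, 1.76, 1.69 and 1.79. The difference between the waves of the treatments was not called for IFIT1 (limma adjusted p = 0.540 in total RNA and 0.975 in footprints). A called wave difference was found for 1 of 39 members in total RNA, ZNFX1 (9.78% of all genes), and for 1 of 33 in footprints, IFIT3 (3.5%). The test of the wave difference was not run with a drift term, nor without the CT8 library that stood apart in IL8. Leaving out replicates or adding terms moved the adjusted p of the IFIT1 wave as high as 0.117 in knockdown total RNA and 0.213 in wild-type footprints, while in wild-type total RNA it stayed at or below 0.00186 over 6 alternatives.

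A single day cannot separate a wave from a drift, so a linear drift was added to the fit. IFIT1 was then the 1 member still called in knockdown total RNA (4.14% of all genes), in wild-type total RNA (0.176%) and in wild-type footprints (0.0591%). In knockdown footprints its call was lost (limma adjusted p = 0.115; 0.0288 to 0.479 over 6 alternatives) and TRIM22 was the 1 member called (2.21% of all genes). OASL kept no call with the drift in any of the 4. With the drift, the fitted IFIT1 peaks were at CT10.3 in knockdown and CT8.8 in wild-type total RNA. In footprints they were at CT11.9 in knockdown and CT11.2 in wild-type cells.

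**Figure D4:**
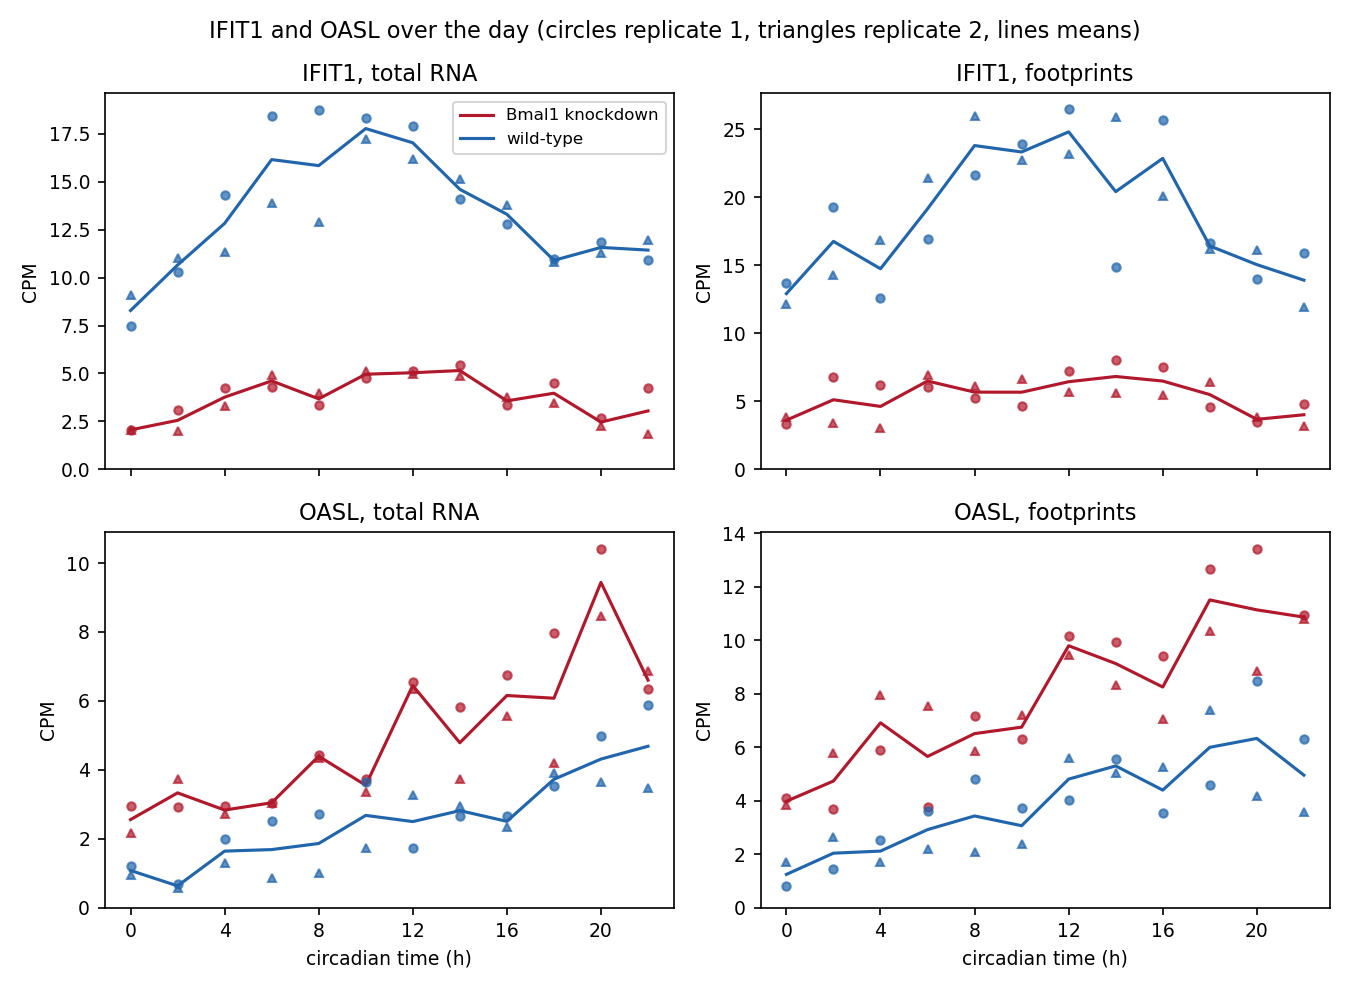
IFIT1 and OASL in CPM (axes from 0) against circadian time in hours, in total RNA (left) and footprints (right), for Bmal1 knockdown (red) and wild-type (blue); points are libraries and lines join the means of 2 replicates. IFIT1 is highest between CT10 and CT14 in the time means of both treatments and both assays, while OASL climbs through the day.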

How the data were processed

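Total RNA and ribosome footprints were compared between Bmal1 knockdown and wild-type U2-OS cells, 24 libraries per treatment and assay. The deposited values are a normalised signal: per the submitters' processing notes, the tools named are STAR 2.3.0e, HTSeq 0.5.4p1 and DESeq2 (version not given), with build GRCh37 (hg19). Use of strand in counting is not stated. Dividing each library by its own recovered step (the value of 1 read) gave whole reads for 100% of values, to a tolerance of 0.001.

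CPM used TMM scaling within each assay (edgeR 4.0.16). The main test was limma-trend with robust empirical Bayes (limma 3.58.1, R 4.3.3) on log2 CPM with a pseudocount of 0.25, 1 mean per treatment and time, genes kept by filterByExpr at a minimum of 10 reads, and Benjamini-Hochberg adjustment over all genes at 0.05. edgeR's quasi-likelihood test on the recovered reads, DESeq2 1.42.0 size factors, the deposited scaling, no filter, a mean filter of 10 reads, a pseudocount of 2, a replicate block, series means and left-out libraries were alternatives. Members, lists and tests were chosen with earlier results of these data known; the wave difference, the mean filter and the left-out CT8 library were added after seeing the data. Members called with an absolute log2 change of at least 0.5 in either assay were described in full, and the 3 largest called changes per pathway list were named. Replicate numbers did not pair the treatments (correlation of deviations -0.04 to 0.10 in total RNA and -0.04 to 0.12 in footprints, over 12 times). Same-numbered footprint and total RNA libraries deviated together in wild-type cells (0.17 to 0.34) and less so in knockdown cells (-0.0009 to 0.36, median 0.11). The main translational efficiency test did not use this pairing. Scripts were tested on simulated data. Promoter sequences are from RefSeq (GRCh38.p14). 790 genes had no read.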

Additional observations from a re-analysis of the deposited data

Results flagged for a closer look

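SP110 drifted differently in the treatments, by a test of the difference itself: its log2 trend over 22 h was higher in knockdown cells than in wild-type cells by 0.60 ± 0.18 in total RNA (limma adjusted p = 0.0119; 0.000704 to 0.0715 over 8 alternatives) and by 0.63 ± 0.17 in footprints (0.0106; 0.00233 to 0.115 over 7 alternatives). ZNFX1 did so by 0.34 ± 0.06 in total RNA (2.89e-05; 1.41e-06 to 0.0156 over 8 alternatives) and by 0.36 ± 0.10 in footprints (0.0131; 0.00516 to 0.263 over 7 alternatives). The highest of these p-values came from leaving out replicate 1 for SP110 and replicate 2 for ZNFX1.

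The 24 h waves differed between the treatments for ZNFX1 in total RNA (limma adjusted p = 0.00227), where 9.78% of all genes passed. They also differed for IFIT3 in footprints (limma adjusted p = 0.0104), where 3.5% passed. The size of the wave difference, which mixes height and timing, was 0.14 log2 units for ZNFX1 and 0.80 for IFIT3. With a replicate block, the 1 alternative run for them, the limma adjusted p-values were 0.000841 and 0.00571. No drift term was added to this test, so a wave difference was not separated from a difference in drift. Nor was the test run without the knockdown replicate 1 library at CT8. ZNFX1 total RNA had 219 CPM there, against at most 210 CPM in the other 23 knockdown libraries. The linear trend of ZNFX1 total RNA over 22 h was 0.17 log2 units in knockdown cells and -0.18 in wild-type cells. IFIT3 footprints rest on a mean of 20.1 reads per library.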

How the results depend on the processing

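The log2 changes of called members kept their sign in every alternative of the 3 knockdown comparisons; 16 of 30 calls in total RNA, 18 of 23 in footprints and 1 of 8 in translational efficiency were kept in all that tested them; the mean filter of 10 reads left IFI44 footprints untested. With series means, members higher and lower numbered 12 and 5 in total RNA, and 1 rose in translational efficiency. Replicate numbers shared between the treatments are numbers only; within wild-type total RNA, same-numbered libraries deviated together between times (correlation 0.20 to 0.35 over 66 pairs). The replicate block gave 1 member lower in translational efficiency, 5 falling trends in knockdown total RNA, 4 trend differences in total RNA, 7 waves in wild-type footprints, and 3 wave differences in total RNA and 2 in footprints; it moved no other count by over 1.5 times. A linear drift left 1 wave in each of the 4 sets.

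Leaving out replicates or series gave 15 to 19 members higher and 6 to 12 lower in total RNA, 15 to 17 and 5 to 10 in footprints, and 2 to 9 and 0 to 2 in translational efficiency; a treatment left with 1 series was assumed to vary like the other. Rising and falling trends numbered 11 to 15 and 0 to 2 in knockdown total RNA, 6 to 12 and 0 to 6 in wild-type total RNA, 2 to 7 and 0 in knockdown footprints, and 4 to 6 and 1 to 2 in wild-type footprints. Trend differences numbered 2 to 3 in total RNA and 0 in footprints. Waves numbered 1 to 5 in knockdown total RNA, 7 to 11 in wild-type total RNA, 0 to 2 in knockdown footprints and 0 to 4 in wild-type footprints. The cause of these shifts was not tested, beyond the smaller number of libraries. Footprints at 2.50 to 5.82 M reads limit members such as CMPK2 and MX1, which could not be tested there.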
